A study of Mus musculus with 24 samples.

Results

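A set of 10 nuclear-encoded regulators of mitochondrial biogenesis and fusion was followed in mouse quadriceps. These were Ppargc1a, Ppargc1b, Esrra, Esrrb, Esrrg, Tfam, Nrf1, Mfn1, Mfn2 and Opa1, taken by name from both count tables, which makes 10 of 24062 gene symbols. All 10 were present and passed the filter on low counts in every fit. Polyadenylated RNA was sequenced from quadriceps of C57BL/6 background mice in 24 libraries of 9 groups. Corrected mice were delEx44 mice that had been given, by the peritoneal route on postnatal day 4, an AAV9 guide RNA vector and an AAV9 SpCas9 vector. The delEx44 mice lack exon 44 of Dmd, the dystrophin gene, and model Duchenne muscular dystrophy. WT mice carry intact Dmd. Each genotype had 3 sedentary libraries at 4 weeks, 2 libraries at 8 weeks after 1 month of downhill running every other day (12 m/min, 15 degree decline), and 3 sedentary libraries at 18 months. Corrected mice of the 4-week and run groups received 8e13 vg/kg of each vector with a self-complementary guide vector. Those of the 18-month group received 2.5e14 vg/kg of a single-stranded guide vector and 5e13 vg/kg of the Cas9 vector. Running and the step from 4 to 8 weeks came together, and age came with vector dose and type in corrected mice, so neither pair can be told apart. The labels do not say whether each library is a separate animal, and p-values measure the spread between these samples. Of the 18-month WT libraries, 2 could be matched only to their group and are called a and b.

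The PGC-1 coactivators, encoded by Ppargc1a and Ppargc1b, bind transcription factors and raise the transcription of nuclear genes for mitochondrial proteins; in muscle Ppargc1a responds to contraction. Among their partners are the estrogen-related receptors (ERRs), orphan nuclear receptors encoded by Esrra, Esrrb and Esrrg, and NRF1, the nuclear respiratory factor that acts on genes such as Tfam, whose product packages and transcribes mitochondrial DNA. Mitochondria also fuse: the mitofusins encoded by Mfn1 and Mfn2 join outer membranes, and the dynamin-like GTPase encoded by Opa1 joins inner membranes and keeps cristae in shape.

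In GENCODE vM21 on GRCm38, Ppargc1a lies at chr5:51454250-51567726 (minus strand), Esrra at chr19:6910977-6921813 (minus), Esrrb at chr12:86361117-86521628 (plus) and Esrrg at chr1:187608791-188214885 (plus). Tfam lies at chr10:71225464-71238280 (minus), Nrf1 at chr6:30047988-30153458 (plus), Mfn1 at chr3:32529465-32579239 (plus), Mfn2 at chr4:147873599-147904704 (minus) and Opa1 at chr16:29579334-29654884 (plus).

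RefSeq promoter windows of 300 bases (250 before a start and 50 after it, GRCm38.p6) were found for 9 members, 16 windows in all. They were searched on both strands for 4 motif cores: the ERR element AAGGTCA, the NRF1 palindrome CGCATGCG, the GABPA (ETS) core CCGGAAG and the cAMP response element TGACGTCA. Of all 32851 promoter windows of that length, 4.72%, 1.87%, 8.86% and 1.79% held them, in that order. The windows of Tfam, Mfn1 and Opa1 held 1 match each and are shown because these are the members with a match and all of them fell in delEx44 against WT muscle at 4 weeks and 18 months under TMM scaling (Tfam reverses on library totals). The matches, in capitals below, are the GABPA core at base 204 of the Tfam window (chr10:71237995-71238294, minus) and base 207 of the Mfn1 window (chr3:32529232-32529531, plus), and the NRF1 core at base 193 of the Opa1 window (chr16:29579084-29579383, plus). No ERR core or cAMP element was in any of the 16 windows; a match is a string of letters and not a shown binding site.
Tfam promoter: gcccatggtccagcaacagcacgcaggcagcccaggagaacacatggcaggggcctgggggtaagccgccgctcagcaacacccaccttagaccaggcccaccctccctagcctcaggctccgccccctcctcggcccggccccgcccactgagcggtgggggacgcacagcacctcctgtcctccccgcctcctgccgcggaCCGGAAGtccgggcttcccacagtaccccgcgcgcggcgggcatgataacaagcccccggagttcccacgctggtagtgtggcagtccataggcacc
Mfn1 promoter: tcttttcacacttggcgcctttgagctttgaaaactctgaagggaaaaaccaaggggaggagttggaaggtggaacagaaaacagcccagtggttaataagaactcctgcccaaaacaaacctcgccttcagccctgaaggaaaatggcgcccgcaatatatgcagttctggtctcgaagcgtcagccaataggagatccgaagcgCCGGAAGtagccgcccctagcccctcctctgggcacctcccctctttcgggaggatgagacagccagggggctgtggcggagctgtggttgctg
Opa1 promoter: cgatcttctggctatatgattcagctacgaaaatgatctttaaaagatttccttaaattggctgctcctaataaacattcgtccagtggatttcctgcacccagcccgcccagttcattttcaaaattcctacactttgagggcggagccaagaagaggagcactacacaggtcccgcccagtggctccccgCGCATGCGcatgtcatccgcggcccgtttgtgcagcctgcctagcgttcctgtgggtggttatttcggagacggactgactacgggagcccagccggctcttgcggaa

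Counts assigned to genes came to 30.6 to 38.1 M (mega-counts) per library in the 4-week and run table and to 23.1 to 31.3 M in the 18-month table. Levels are CPM, counts relative to the library size scaled with TMM factors within each table, and a call is an adjusted p under 0.05 from edgeR's quasi-likelihood test. Dmd, counted over the whole gene and so silent on exon 44 itself, had 155, 156 and 172 CPM in corrected, 36.1, 41.8 and 41.2 CPM in delEx44 and 239.6, 208 and 204 CPM in WT libraries at 4 weeks. Its groups kept that order without overlap after running (corrected 95.5 and 88.8 CPM, delEx44 40.7 and 41.8 CPM, WT 148 and 159.9 CPM) and at 18 months (corrected 205, 304 and 195 CPM, delEx44 86.2, 86.7 and 84.2 CPM, WT 337, 349.8 and 425 CPM). The tissue label was met by its markers: all 9 muscle fibre genes were detected in every group, with a summed level of 64040 to 219400 CPM.

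Lower levels in delEx44 muscle were the common pattern among the regulators, and Esrra, Mfn1 and Opa1 were called lower at all 3 stages. At 4 weeks 6 of 10 members fell in delEx44 against WT and 0 rose; 50.2% of all genes tested were called in that comparison. After running 5 fell and 0 rose (29.1% of all genes called), and at 18 months 4 fell and 0 rose (52.7%). Falls alone were 25% of all genes tested at 4 weeks, 14.2% after running and 23.8% at 18 months. The share of members that fell was thus above that of all genes at each stage. Counted in both directions, the share called was above that of all genes at 4 weeks and after running and below it at 18 months. With 10 members the counts say little beyond their direction. The median member log2 fold change was -0.43, -0.28 and -0.28 at the 3 stages, against -0.0039, -0.012 and 0.048 over all genes tested. In corrected against delEx44 muscle, which shares the delEx44 libraries, 5 members rose at 4 weeks (46.3% of all genes called) and 3 after running (23.2%), with 0 falls at either stage, and at 18 months 4 rose and 1 fell (41.0%).

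The scaling bears on these values. On library totals without TMM factors, an alternative added after seeing the data, the median of all genes moved by 0.397 (log2) in delEx44 against WT at 4 weeks, by 0.133 after running and by 0.306 at 18 months. The share of calls that were higher in delEx44 was 91.2% at 4 weeks against 50.2% with TMM, 73.4% against 51.2% after running and 85.2% against 54.7% at 18 months. The shift ran the other way in corrected against delEx44 muscle (-0.324, -0.111 and -0.274). There the share of higher calls was 10.1% on totals against 47.7% with TMM at 4 weeks, 26.4% against 46.4% after running and 13% against 47.9% at 18 months. Changes below are relative to TMM scaling. Of the 160 member values (10 members in 16 comparisons), 28 had the other sign on totals, 4 of them called under at least 1 scaling and 24 under neither. A further 9 calls were lost and 8 gained on totals, and these are named with the members. Summed muscle fibre markers (9 genes, none at 0) ranged over 172800 to 196400 CPM in corrected, 93240 to 119300 in delEx44 and 194700 to 219400 in WT libraries at 4 weeks. Macrophage markers (8 genes, none at 0) ranged over 469 to 650 CPM in corrected, 1431 to 2120 in delEx44 and 280.7 to 331.3 in WT. Immature fibre markers (6 genes, none at 0) ranged over 69.9 to 84.7 CPM in corrected, 429 to 992 in delEx44 and 46.3 to 67.0 in WT, and all 6 were called higher in delEx44 than in WT at 4 weeks and at 18 months. At 18 months the fibre markers ranged over 121600 to 132200 CPM in corrected, 64040 to 77800 in delEx44 and 131700 to 142600 in WT. Macrophage markers then ranged over 220.9 to 853 CPM in corrected (highest in replicate 3), 783 to 857 in delEx44 and 192 to 283 in WT. Fibroblast markers (5 genes, none at 0) ranged over 1705 to 2119 CPM in corrected, 2776 to 3403 in delEx44 and 1657 to 1816 in WT. Adipocyte markers (6 genes, none at 0) ranged over 106 to 232 CPM in corrected, 785 to 972 in delEx44 and 275 to 309 in WT. Their part in the member changes was not tested, and fewer fibres and less RNA per fibre cannot be told apart in whole muscle.

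**Figure D1:**
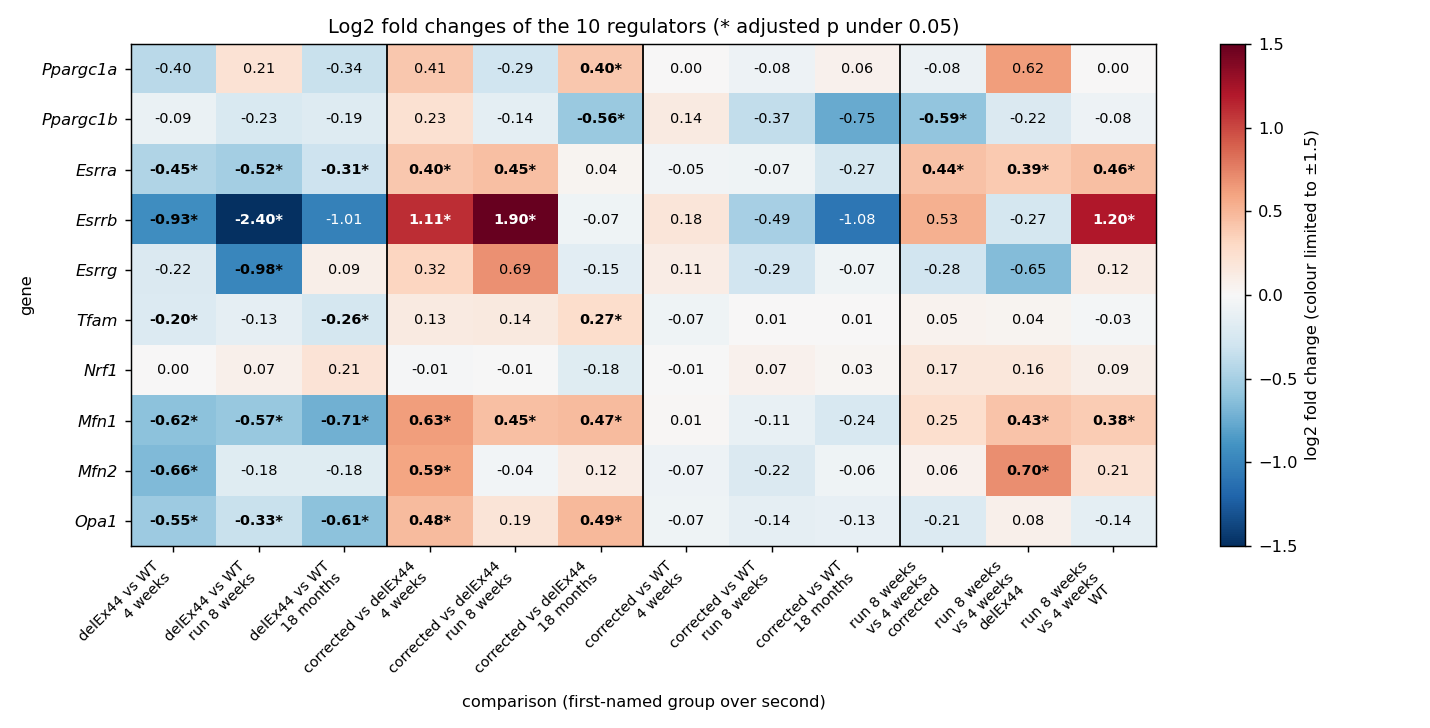
Log2 fold changes (number and colour, first-named group over the second) of the 10 regulators in 12 comparisons, columns being comparisons and rows genes; asterisks mark adjusted p under 0.05 in edgeR's quasi-likelihood test. Esrra, Mfn1 and Opa1 are called lower in delEx44 than in WT at all 3 stages, and no cell carries an asterisk in the corrected against WT columns.

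Per kilobase of exon, which allows levels to be set between genes, Mfn2 was the most abundant member in 4-week WT muscle at 102 ± 10.2 CPM per kb, followed by Mfn1 at 32.7 ± 4.22, Esrra at 21.6 ± 1.58 and Opa1 at 20.2 ± 1.27 (SD, n = 3 here and below). Tfam followed at 11.9 ± 0.788, Ppargc1a at 9.30 ± 2.37, Esrrg at 3.41 ± 0.853, Ppargc1b at 2.52 ± 0.220, Nrf1 at 1.37 ± 0.0310 and Esrrb at 0.595 ± 0.226 CPM per kb. The libraries of Esrra and Opa1, of Tfam and Ppargc1a, and of Esrrg and Ppargc1b overlapped. In 18-month WT muscle Esrrg stood at 11.3 ± 1.22 and Esrra at 12.0 ± 0.833 CPM per kb; age and table cannot be told apart there, and the difference from 4 weeks was not tested.

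**Figure D2:**
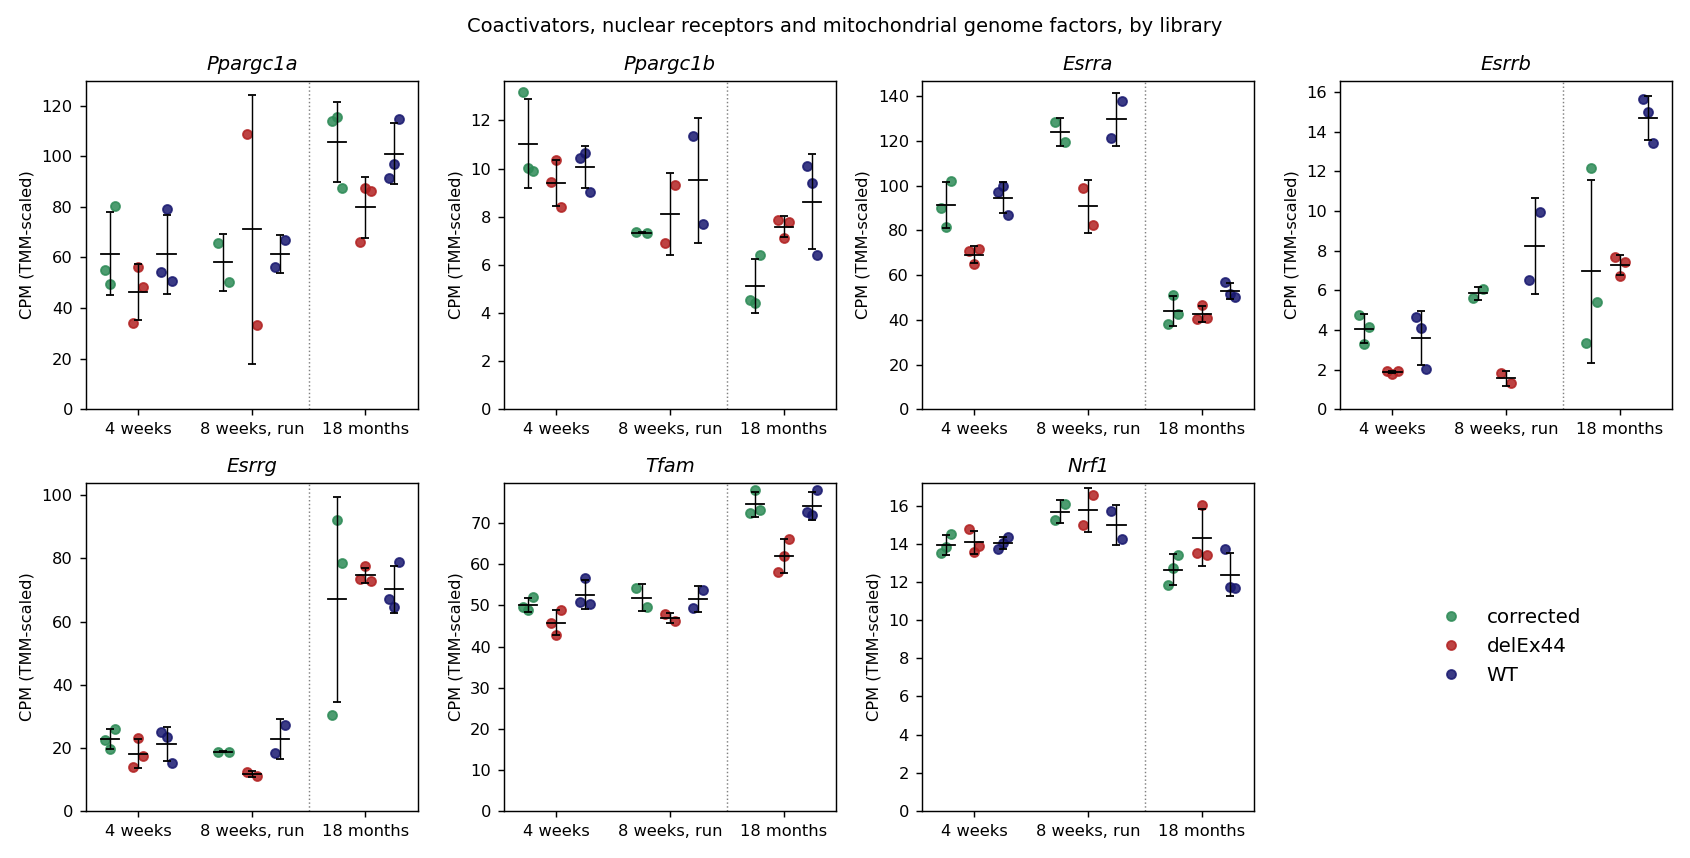
CPM (TMM-scaled) of 7 regulators in every library, with group mean (bar) and SD (whisker); groups run corrected, delEx44, WT within each stage, and the dotted line separates the tables, which were scaled separately. Esrra and Esrrb are lowest in delEx44 at 4 weeks and after running, Nrf1 overlaps between genotypes in most places, and single libraries widen Ppargc1a after running and Esrrg at 18 months.

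Ppargc1a, the coactivator gene most tied to exercise, did not separate the genotypes at the younger stages. At 4 weeks it had 54.9, 49.4 and 80.2 CPM in corrected, 34.3, 56.2 and 48.4 CPM in delEx44 and 54.1, 79.2 and 50.5 CPM in WT libraries. The groups overlapped (delEx44 against WT -0.40 ± 0.39, SE, adjusted p = 0.41). After running it had 65.9 and 50.2 CPM in corrected, 109 and 33.4 CPM in delEx44 and 56.1 and 66.7 CPM in WT libraries. The delEx44 run libraries thus hold both the highest and the lowest value of that stage, a 3.25-fold spread within 1 group. Run against 4-week delEx44 muscle differed by 0.62 ± 0.43 (adjusted p = 0.29); without delEx44 run replicate 2 the value was 1.24 and called (adjusted p = 0.021), and without replicate 1 it was -0.47.

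At 18 months Ppargc1a had 114, 116 and 87.3 CPM in corrected, 66.1, 87.4 and 86.1 CPM in delEx44 and 91.5, 97.0 and 115 CPM in WT libraries. It rose in corrected against delEx44 muscle by 0.40 ± 0.14 (adjusted p = 0.048), although the lowest corrected library lay just under the highest delEx44 library. That call was lost without any of the 3 delEx44 libraries or without corrected replicate 1 or 2 (log2 values of 0.28 to 0.55, adjusted p of 0.0082 to 0.15 over the 6 omissions), and on library totals the value was 0.13. All 3 delEx44 libraries lay below all 3 WT libraries, but the difference of -0.34 ± 0.14 was not called (adjusted p = 0.071; 0.017 with the 2 groups alone).

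Ppargc1b, the second PGC-1 coactivator gene, had 4.56, 4.40 and 6.42 CPM in corrected, 7.87, 7.10 and 7.78 CPM in delEx44 and 10.1, 9.40 and 6.39 CPM in WT libraries at 18 months. It fell in corrected against delEx44 muscle by 0.56 ± 0.19 on the log2 scale (adjusted p = 0.037), with no overlap between those groups. Without any delEx44 library or without corrected replicate 1 or 2 the call was lost (adjusted p of 0.0094 to 0.11 over the 6 omissions, log2 values of -0.73 to -0.46). At 4 weeks it had 13.2, 10.0 and 9.89 CPM in corrected, 9.44, 10.4 and 8.42 CPM in delEx44 and 10.5, 10.7 and 9.04 CPM in WT libraries, all overlapping. The difference between corrected and delEx44 muscle was lower at 18 months than at 4 weeks, by a log2 value of -0.76 ± 0.24 (adjusted p = 0.040), in a contrast where 15.9% of all genes were called. It was called in 4 of 12 omissions (adjusted p of 0.013 to 0.11). It was lost without any of the 3 delEx44 18-month libraries, corrected 18-month replicate 1 or 2, delEx44 4-week replicate 1 or 3 or corrected 4-week replicate 1, and on library totals (-0.74, adjusted p = 0.075).

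Against WT at 18 months Ppargc1b was lower in corrected muscle by a log2 value of -0.75 ± 0.19 that missed the threshold (adjusted p = 0.052) and passed it without WT replicate 3 or corrected replicate 2 or 3 (adjusted p down to 0.027). The 3 WT libraries were widely spread, the lowest lying just under the highest corrected library. The brown fat gene Ucp1 was uneven at the younger stages. It had 39.2, 14.3 and 0.726 CPM in corrected 4-week libraries and 40.9 and 9.05 CPM in corrected run libraries. In WT libraries it had 0.819, 0 and 13 CPM at 4 weeks and 23.4 and 0 CPM after running. In delEx44 libraries of these stages it had at most 1.09 CPM. At 18 months Ucp1 was at most 0.04 CPM in any library. The part of brown fat in the Ppargc1b values was not tested. After running, Ppargc1b had 7.36 and 7.32 CPM in corrected, 6.90 and 9.30 CPM in delEx44 and 11.3 and 7.68 CPM in WT libraries. It fell in run against 4-week corrected muscle by 0.59 ± 0.19 (adjusted p = 0.032); the call was lost without corrected 4-week replicate 1 or either run replicate (adjusted p up to 0.16) and on library totals.

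Esrra, the ERR gene with the highest level per kilobase at 4 weeks, fell in delEx44 against WT at all 3 stages and was higher in run 8-week than in 4-week muscle of all 3 genotypes. Its 4-week levels were 90.2, 81.5 and 102 CPM in corrected, 70.9, 65.0 and 71.6 CPM in delEx44 and 97.1, 99.9 and 86.7 CPM in WT libraries. Every delEx44 library lay below every other. Esrra fell in delEx44 against WT by 0.45 ± 0.10 (adjusted p = 0.0017). It rose in corrected against delEx44 by 0.40 ± 0.10 (adjusted p = 0.0044). Run libraries had 128 and 119 CPM in corrected, 99.1 and 82.3 CPM in delEx44 and 121 and 138 CPM in WT libraries. The log2 fold changes were -0.52 ± 0.12 (delEx44 against WT, adjusted p = 0.0059) and 0.45 ± 0.12 (corrected against delEx44, adjusted p = 0.016). The run calls were lost without delEx44 replicate 2 in both comparisons, without WT replicate 2 in the first (adjusted p up to 0.063) and without corrected replicate 1 in the second (adjusted p up to 0.13), which was also lost where the 2 groups were fitted alone. The 4-week calls were lost on library totals (-0.052 and 0.074).

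At 18 months Esrra had 38.1, 51.1 and 42.5 CPM in corrected, 40.4, 46.6 and 41.0 CPM in delEx44 and 57.0, 51.5 and 50.1 CPM in WT libraries. Against WT it fell by 0.31 ± 0.11 in delEx44 (adjusted p = 0.032). That call held in 2 of 6 omissions, was lost without WT library a or b or delEx44 replicate 1 or 3 (adjusted p up to 0.11), and was lost on library totals (-0.0032). Corrected and delEx44 libraries overlapped (0.041 ± 0.107, adjusted p = 0.79; -0.23 and not called on totals). Corrected against WT gave -0.27 ± 0.11 (adjusted p = 0.16) and passed without corrected replicate 2 (-0.39, adjusted p = 0.011). Whether the corrected against delEx44 difference changed with age was not called (-0.33 ± 0.15, adjusted p = 0.14; called without corrected replicate 2, adjusted p = 0.026).

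Run against 4-week muscle showed Esrra higher by 0.44 ± 0.11 in corrected (adjusted p = 0.0091), 0.39 ± 0.11 in delEx44 (adjusted p = 0.012) and 0.46 ± 0.11 in WT (adjusted p = 0.0070), with no overlap in any genotype. In these comparisons 25.8%, 35.7% and 27.6% of all genes were called, and 2, 3 and 3 members. Each Esrra call was lost without 1 library: corrected run replicate 1 (adjusted p = 0.094), delEx44 run replicate 1 (0.25, adjusted p = 0.17) or WT run replicate 2 (adjusted p = 0.086), and the delEx44 call was also lost on library totals (0.23).

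Esrrb, the least abundant ERR gene, had a log2 difference of -2.40 between run delEx44 and WT muscle. The 4-week levels were 4.75, 3.29 and 4.12 CPM in corrected, 1.91, 1.79 and 1.93 CPM in delEx44 and 4.66, 4.08 and 2.05 CPM in WT libraries. Against WT, delEx44 muscle fell by 0.93 ± 0.27 (adjusted p = 0.012). That call was lost without WT replicate 1 (adjusted p = 0.064) and on library totals (-0.53). Esrrb rose in corrected against delEx44 by 1.11 ± 0.27 (adjusted p = 0.0045). After running the levels were 5.62 and 6.09 CPM in corrected, 1.82 and 1.30 CPM in delEx44 and 6.53 and 9.94 CPM in WT libraries. The delEx44 pair lay far below, and the corrected pair just under WT (-0.49 ± 0.30, adjusted p = 0.65). The log2 fold change was -2.40 ± 0.33 in delEx44 against WT (adjusted p = 0.00031) and corrected was 3.74-fold higher than delEx44 (adjusted p = 0.0020). Both calls held without any 1 library. Run against 4-week muscle was at -0.27 ± 0.32 in delEx44 (adjusted p = 0.55). In WT muscle Esrrb was higher after running by 1.20 ± 0.28 (adjusted p = 0.0072), a call lost without WT run replicate 2 (adjusted p = 0.098) and where those 2 groups were fitted alone. The difference between these changes, -1.46 ± 0.43, was not called by edgeR (adjusted p = 0.11) but was called on library totals and by DESeq2.

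At 18 months Esrrb had 3.32, 12.2 and 5.39 CPM in corrected, 7.66, 6.71 and 7.45 CPM in delEx44 and 15.6, 15.0 and 13.4 CPM in WT libraries. Every corrected and delEx44 library lay below every WT library. Neither difference from WT was called by edgeR (corrected -1.08 ± 0.39, adjusted p = 0.14; delEx44 -1.01 ± 0.38, adjusted p = 0.056). DESeq2 called both (adjusted p of 0.021 for corrected and 0.0053 for delEx44), and the delEx44 difference was also called where those 2 groups were fitted alone. The corrected libraries spread 3.66-fold. Without corrected replicate 2 the corrected against WT value was -1.75 (adjusted p = 8.8e-05) and corrected against delEx44 was -0.73 (adjusted p = 0.0077). Without any other library neither was called.

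Esrrg, an ERR gene known for oxidative muscle, overlapped between genotypes at 4 weeks. It had 22.6, 19.7 and 26.1 CPM in corrected, 14.0, 23.2 and 17.4 CPM in delEx44 and 25.0, 23.4 and 15.1 CPM in WT libraries. After running it had 18.8 and 18.6 CPM in corrected, 12.3 and 10.9 CPM in delEx44 and 18.4 and 27.4 CPM in WT libraries, the delEx44 pair lowest. Esrrg fell in delEx44 against WT by 0.98 ± 0.28 (adjusted p = 0.021), a call lost without WT run replicate 2 or either delEx44 run replicate (adjusted p up to 0.18). Run against 4-week delEx44 muscle was at -0.65, not called (adjusted p = 0.068) but called on totals (-0.81, adjusted p = 0.017). Corrected against delEx44 after running was at 0.69 and was called where the 2 groups were fitted alone (adjusted p = 0.025). At 18 months it had 30.4, 92.3 and 78.5 CPM in corrected, 73.4, 77.5 and 72.9 CPM in delEx44 and 67.0, 64.8 and 78.8 CPM in WT libraries. Corrected replicate 1 stood far below all the others of that age.

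The levels of slow and oxidative fibre genes are given beside those of Esrrb and Esrrg. The summed level of 8 such genes (Myh7, Myh2, Tnnt1, Tnni1, Tnnc1, Myl2, Myl3 and Atp2a2, none at 0 in any group) was 568.5, 4691 and 1917 CPM in corrected, 3987, 3298 and 3579 CPM in delEx44 and 4453, 4009 and 4447 CPM in WT libraries at 18 months. It was lowest in the corrected library with least Esrrb and Esrrg. At 4 weeks it was 1686, 1317 and 2120 CPM in corrected, 1270, 1095 and 929.1 CPM in delEx44 and 1902, 1800 and 651.5 CPM in WT libraries. The low WT library, replicate 3, also had the least Esrrb and Esrrg of its group and the most neutrophil markers (230.5 CPM, against at most 0.433 CPM in the other WT libraries). After running it was 1937 and 2164 CPM in corrected, 1864 and 1437 CPM in delEx44 and 2414 and 3318 CPM in WT libraries. The part of fibre type in the ERR values was not tested.

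**Figure D3:**
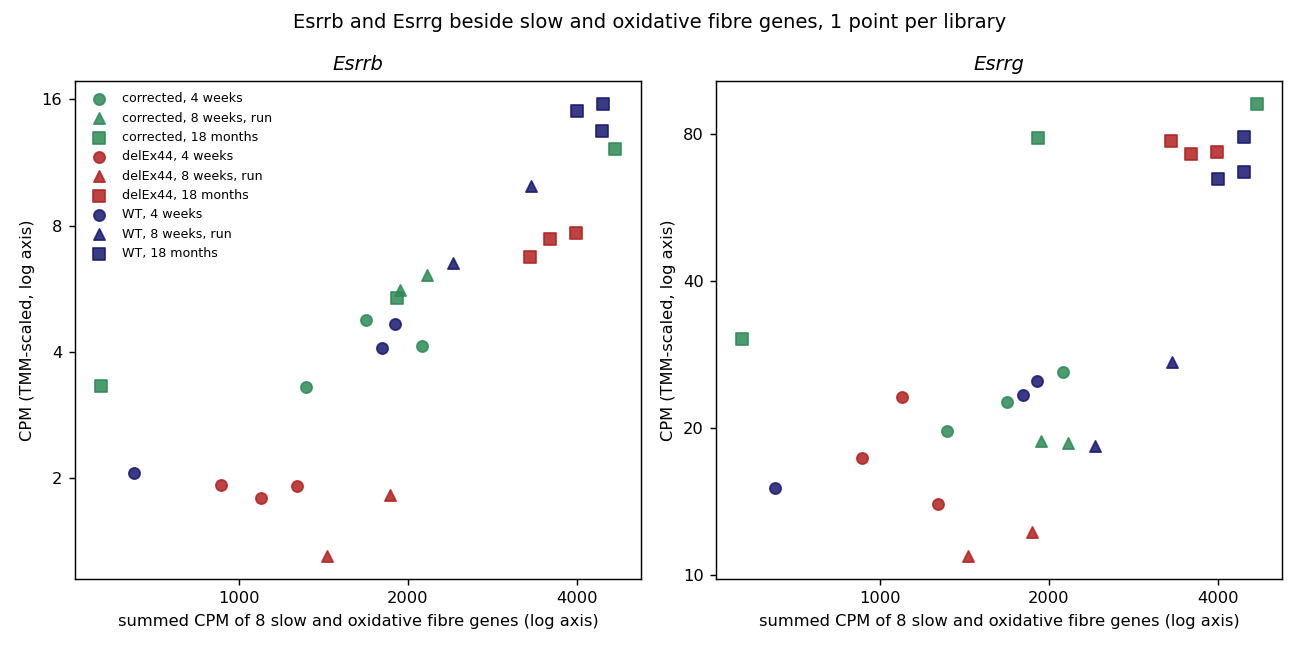
Level of Esrrb and Esrrg (vertical, CPM, log axis) against the summed CPM of 8 slow and oxidative fibre genes (horizontal, log axis), 1 point per library, with colour for genotype and shape for stage. The corrected 18-month library at 568.5 CPM has 3.32 CPM of Esrrb and 30.4 CPM of Esrrg, and the delEx44 run libraries have the least Esrrg of all, at 12.3 and 10.9 CPM.

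Tfam, which encodes the packaging and transcription factor of mitochondrial DNA, showed small differences that depended on the scaling. Its 4-week levels were 49.5, 48.8 and 52.0 CPM in corrected, 45.8, 42.8 and 48.8 CPM in delEx44 and 50.9, 56.6 and 50.3 CPM in WT libraries. Tfam fell in delEx44 against WT by 0.20 ± 0.07 (adjusted p = 0.026), whereas on library totals it was 0.20 higher (adjusted p = 0.016). The 6 omissions of 1 library gave adjusted p of 0.019 to 0.12. The call was lost without WT replicate 2 or delEx44 replicate 1 or 2, and where the 2 groups were fitted alone (adjusted p = 0.067). At 18 months it had 72.5, 78.0 and 73.2 CPM in corrected, 58.0, 62.0 and 66.2 CPM in delEx44 and 72.6, 72.0 and 78.1 CPM in WT libraries. All delEx44 libraries were below all others, with -0.26 ± 0.07 against WT (adjusted p = 0.0090) and 0.27 ± 0.07 for corrected against delEx44 (adjusted p = 0.010), against 0.047 and -0.0083 on library totals. After running, corrected libraries had 54.3 and 49.5 CPM, delEx44 libraries 47.9 and 46.1 CPM and WT libraries 49.3 and 53.8 CPM, with no call.

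Nrf1, the nuclear respiratory factor gene, passed in none of the 16 comparisons under TMM scaling. It ranged over 13.5 to 14.5 CPM in corrected, 13.6 to 14.8 CPM in delEx44 and 13.7 to 14.4 CPM in WT libraries at 4 weeks. There delEx44 differed from WT by 0.0027 ± 0.069 (adjusted p = 0.98). At 18 months it had 11.8, 12.7 and 13.4 CPM in corrected, 13.5, 16.0 and 13.4 CPM in delEx44 and 13.7, 11.8 and 11.7 CPM in WT libraries. On library totals it was called higher in delEx44 than in WT at 4 weeks (0.40) and at 18 months (0.52). All genes had medians of 0.393 and 0.354 there, so the 4-week value lay near the median and the 18-month value above it. On totals corrected against delEx44 was also called, at -0.34 at 4 weeks and -0.45 at 18 months.

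**Figure D4:**
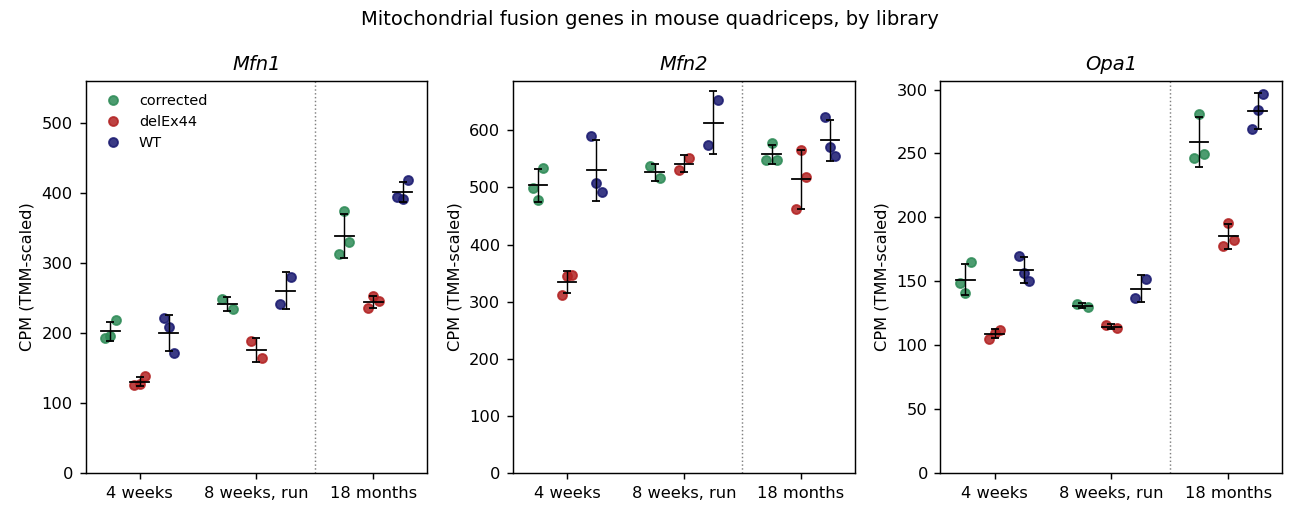
CPM (TMM-scaled) of Mfn1, Mfn2 and Opa1 in every library, with group mean (bar) and SD (whisker); groups run corrected, delEx44, WT within each stage, and the dotted line separates the tables, which were scaled separately. All 3 genes are lowest in delEx44 at 4 weeks, while the delEx44 run libraries of Mfn2 (531 and 552 CPM) lie beside the corrected ones.

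Mfn1, a mitofusin gene of the outer membrane, was lower in delEx44 muscle at every stage. At 4 weeks it had 193, 195 and 218 CPM in corrected, 126, 127 and 138 CPM in delEx44 and 221, 208 and 171 CPM in WT libraries. Mfn1 fell in delEx44 against WT by 0.62 ± 0.10 (adjusted p = 0.00021). It rose in corrected against delEx44 by 0.63 ± 0.10 (adjusted p = 0.00023), and the corrected libraries overlapped WT (0.013 ± 0.098, adjusted p = 0.98). The run libraries had 248 and 234 CPM in corrected, 188 and 164 CPM in delEx44 and 241 and 279.7 CPM in WT libraries. The delEx44 pair was lowest, at -0.57 ± 0.12 against WT (adjusted p = 0.0038), and corrected was higher than delEx44 by 0.45 ± 0.12 (adjusted p = 0.016; up to 0.12 and lost without delEx44 replicate 2 or corrected replicate 1, and 0.061 with the 2 groups alone).

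At 18 months Mfn1 had 313, 374 and 329.7 CPM in corrected, 235, 253 and 245 CPM in delEx44 and 394, 392 and 418 CPM in WT libraries, 3 levels with no overlap. In delEx44 against WT it fell by 0.71 ± 0.08 (adjusted p = 5.8e-05) and rose in corrected against delEx44 by 0.47 ± 0.08 (adjusted p = 0.00096). The remaining difference of corrected from WT, -0.24 ± 0.08, was not called (adjusted p = 0.088) but passed by DESeq2 and without corrected replicate 2 (adjusted p = 0.010). The falls in delEx44 at all 3 stages were also called on library totals, at -0.22, -0.43 and -0.41. Run against 4-week muscle was at 0.25 ± 0.11 in corrected, which was not called (adjusted p = 0.10) but was called on totals (0.30, adjusted p = 0.026). It was higher by 0.43 ± 0.11 in delEx44 (adjusted p = 0.0083; 0.10 without delEx44 run replicate 1). In WT it was higher by 0.38 ± 0.11 (adjusted p = 0.020), a call lost without WT 4-week replicate 3 or run replicate 2 (adjusted p up to 0.19) or with the 2 groups alone (adjusted p = 0.059).

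Opa1, the inner-membrane fusion gene, had 149, 140.5 and 165 CPM in corrected, 105, 109 and 112 CPM in delEx44 and 169.9, 157 and 150.3 CPM in WT libraries at 4 weeks. In delEx44 against WT it fell by 0.55 ± 0.07 (adjusted p = 4.1e-05), and it rose in corrected against delEx44 by 0.48 ± 0.07 (adjusted p = 0.00016). At 18 months it had 246, 281 and 249.9 CPM in corrected, 177, 196 and 182 CPM in delEx44 and 269, 284 and 297 CPM in WT libraries, with delEx44 apart from both others. The log2 fold changes were -0.61 ± 0.07 against WT (adjusted p = 0.00012) and 0.49 ± 0.07 for corrected against delEx44 (adjusted p = 0.00068). The falls at both ages were called on library totals too (-0.15 and -0.31). After running it had 132 and 129.5 CPM in corrected, 116 and 113 CPM in delEx44 and 137 and 152 CPM in WT libraries. The groups, of 2 libraries each, did not overlap, but corrected against delEx44 was at 0.19 and not called. Opa1 fell in delEx44 against WT by 0.33 ± 0.09 (adjusted p = 0.012), a call lost without WT replicate 2 or delEx44 replicate 2 (adjusted p up to 0.12), on library totals and where the 2 groups were fitted alone.

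Mfn2, which also links mitochondria to the endoplasmic reticulum, fell in delEx44 against WT at 4 weeks. At the later stages edgeR did not call that comparison, while DESeq2 called it at 18 months. In 4-week muscle it had 498, 478 and 535 CPM in corrected, 312, 346 and 346 CPM in delEx44 and 589.8, 508 and 491 CPM in WT libraries, the delEx44 libraries far below. Mfn2 fell in delEx44 against WT by 0.66 ± 0.08 (adjusted p = 3.6e-05) and rose in corrected against delEx44 by 0.59 ± 0.08 (adjusted p = 0.00012). After running it had 537 and 516 CPM in corrected, 531 and 552 CPM in delEx44 and 575 and 652 CPM in WT libraries. Neither delEx44 against WT (-0.18 ± 0.10, adjusted p = 0.21) nor corrected against delEx44 (-0.041 ± 0.103, adjusted p = 0.81) was called. Run against 4-week delEx44 muscle was higher by 0.70 ± 0.09 (adjusted p = 0.00019), against 0.064 ± 0.094 in corrected (adjusted p = 0.66) and 0.21 ± 0.09 in WT (adjusted p = 0.11). The change in delEx44 held without any 1 library and on library totals (0.53). The value in WT was called on totals (0.31, adjusted p = 0.0053). Summed fibre markers ranged over 133800 to 146600 CPM in run delEx44 libraries, against 93240 to 119300 CPM at 4 weeks, and 5 of 9 were called higher and 0 lower. In the same comparison all 8 macrophage and all 6 immature fibre markers were called lower, at sums of 971 to 990.5 and 171 to 236 CPM in run delEx44 libraries, against 1431 to 2120 and 429 to 992 CPM at 4 weeks. Neutrophil markers (6 genes, none at 0) were at 58.4 and 196 CPM in run delEx44 libraries, against 4.79 to 23.1 CPM at 4 weeks, with 4 of 6 called higher. In corrected muscle 0 of 9 fibre markers were called higher and 1 lower after running, and 5 of 8 macrophage markers lower. Neutrophil markers were not high in run delEx44 libraries alone. They were at 157 and 74.6 CPM in run corrected libraries, against 0.816 to 2.705 CPM at 4 weeks, with 2 of 6 called higher. Run WT libraries had 185 and 125.5 CPM, against 0.315, 0.433 and 230.5 CPM at 4 weeks, with 0 called. The part of these markers in the Mfn2 change was not tested.

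The difference between those changes was tested directly. Corrected against delEx44 was lower after running than at 4 weeks, by a log2 value of -0.63 ± 0.13 (adjusted p = 0.039), in a contrast where 1.42% of all genes and 1 of 10 members were called. The call was kept in 1 of 10 omissions, that of delEx44 4-week replicate 2 (adjusted p of 0.040 to 0.12). For delEx44 against WT the same contrast gave 0.48 ± 0.13 (adjusted p = 0.097) and 0 members were called by edgeR (0.879% of all genes called). Of the members 2 had an unadjusted p under 0.05 and DESeq2 called 2, against 2642 and 718 of the 15013 genes tested.

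At 18 months Mfn2 had 548, 577 and 548 CPM in corrected, 462, 565 and 518 CPM in delEx44 and 623, 571 and 555 CPM in WT libraries, with overlap throughout. The log2 fold changes were -0.18 ± 0.08 for delEx44 against WT (adjusted p = 0.095) and 0.12 ± 0.08 for corrected against delEx44 (adjusted p = 0.30). The fall in delEx44 against WT was called by DESeq2, and by edgeR without delEx44 replicate 2 (adjusted p = 0.037). On library totals both log2 fold changes had the other sign and neither was called (0.13 and -0.16). The delEx44 against WT log2 fold change of Mfn2 was less negative at 18 months than at 4 weeks (-0.66). This change with age was 0.47 ± 0.12 (adjusted p = 0.023), in a contrast where 10.9% of all genes and 1 member were called. It was called in 7 of 12 omissions and lost without WT 4-week replicate 1, delEx44 4-week replicate 1, WT 18-month library b or replicate 3, or delEx44 18-month replicate 2 (adjusted p up to 0.063). For corrected against delEx44 the change was -0.45 ± 0.12 (adjusted p = 0.023), called in 9 of 12 omissions and lost without delEx44 4-week replicate 1, corrected 4-week replicate 3 or delEx44 18-month replicate 2 (adjusted p up to 0.061). For Mfn1 and Opa1 the corresponding changes with age in delEx44 against WT were -0.12 ± 0.13 (adjusted p = 0.61) and -0.086 ± 0.110 (adjusted p = 0.67).

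Corrected against WT muscle had 0 calls among the members at each stage by edgeR. At 4 weeks 0% of all genes were called (1497 at an unadjusted p under 0.05, 220 by DESeq2), 0 members had an unadjusted p under 0.05 and DESeq2 called 0; the member values lay between -0.073 and 0.18. After running 0.0200% of all genes were called (1455 at an unadjusted p under 0.05, 82 by DESeq2), 0 members had an unadjusted p under 0.05 and DESeq2 called 0. The member values then lay between -0.49 and 0.066. At 18 months 4.76% of the 14337 genes tested were called (3537 genes at an unadjusted p under 0.05, 1638 by DESeq2). Of the members 4 had an unadjusted p under 0.05 and DESeq2 called 3, which were Ppargc1b, Esrrb and Mfn1. The member values lay between -1.08 and 0.063 at that age.

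Genes around the regulators were described from 6 lists of pathway genes, chosen with earlier results of these data known. Among known targets of PGC-1 and ERR, mostly respiratory chain, citrate cycle and fat oxidation genes, in delEx44 against WT 29 of 35 fell and 0 rose at 4 weeks, 13 fell and 0 rose after running, and 30 fell and 1 rose at 18 months. Over all genes tested 25% fell and 25.2% rose at 4 weeks, 14.2% fell and 14.9% rose after running, and 23.8% fell and 28.8% rose at 18 months. These shares, under TMM scaling, are also the background for the delEx44 against WT counts of the other lists below. On library totals 9640 of 15013 genes were called at 4 weeks (91.2% of them higher), 3989 after running (73.4%) and 8766 of 14337 at 18 months (85.2%). The medians of all genes on totals were 0.393, 0.122 and 0.354. Counts on totals, here and for the other lists, stand against that background. The median log2 fold change of the targets was -0.50, -0.28 and -0.56 at the 3 stages. On library totals 6, 5 and 19 of them fell and 0, 0 and 1 rose, with medians of -0.099, -0.14 and -0.26. Cox6a2, a muscle subunit of cytochrome c oxidase, averaged 389 CPM in delEx44 against 710.2 CPM in WT at 4 weeks (-0.87 ± 0.08, adjusted p = 2.9e-06) and Sdha, a subunit of complex II, 849 against 1252 CPM (-0.56 ± 0.09, adjusted p = 0.00030). At 18 months Idh3a, a subunit of isocitrate dehydrogenase, averaged 552 CPM in delEx44 against 889 CPM in WT (-0.69 ± 0.09, adjusted p = 0.00019).

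In corrected against delEx44 muscle 29 of the 35 targets rose and 0 fell at 4 weeks, 14 rose and 0 fell after running, and 11 rose and 1 fell at 18 months, against 22.1%, 10.8% and 19.6% of all genes that rose; on library totals 9, 8 and 2 rose and 0, 0 and 4 fell. Against WT at 18 months 8 targets fell in corrected muscle and 0 rose (2.43% of all genes fell; 2 targets fell on totals), with a median of -0.32. At 4 weeks and after running 0 of the 35 passed against WT.

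Coactivators, partners and upstream regulators of PGC-1 and ERR (32 genes) gave 18 falls and 2 rises in delEx44 against WT at 4 weeks. There were 8 and 1 after running and 14 and 3 at 18 months. On library totals 4 fell and 14 rose at 4 weeks and 7 fell and 14 rose at 18 months. The main direction of its calls thus changed with the scaling. Calls over all genes moved the same way, with 91.2% and 85.2% of them higher on totals against 50.2% and 54.7% with TMM. Camk2a, a calcium-dependent kinase subunit, averaged 349 CPM in delEx44 against 708 CPM in WT at 4 weeks (-1.02 ± 0.09, adjusted p = 3.4e-06) and 189 against 518 CPM at 18 months (-1.46 ± 0.13, adjusted p = 2.0e-05). Prkab2, a regulatory subunit of AMP-activated kinase, averaged 220.3 against 439 CPM at 4 weeks (-0.99 ± 0.10, adjusted p = 8.3e-06) and 236 against 521 CPM at 18 months (-1.15 ± 0.09, adjusted p = 1.6e-05). Both falls were called on library totals at both ages.

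Of 21 genes of mitochondrial DNA replication and transcription, 9 fell and 3 rose in delEx44 at 4 weeks, 8 fell and 0 rose after running, and 9 fell and 2 rose at 18 months; on library totals 0 fell and 11 rose at 4 weeks, 4 fell and 0 rose after running, and 1 fell and 6 rose at 18 months. Top1mt, the mitochondrial type I topoisomerase, averaged 7.10 CPM in delEx44 against 13.0 CPM in WT at 18 months (-0.87 ± 0.14, adjusted p = 0.00067) and was called on totals there (-0.56). Tfb2m, a mitochondrial transcription factor, averaged 18.6 against 26.3 CPM (-0.50 ± 0.08, adjusted p = 0.00070) and was not called on totals.

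Fission, adaptor and transport genes fell in 14 and rose in 3 of 18 tested at 4 weeks, 9 and 0 after running, and 11 and 2 of 17 at 18 months, though on library totals 1 fell and 6 rose at 4 weeks, 2 fell and 0 rose after running, and 1 fell and 4 rose at 18 months. Gdap1, a fission-related outer-membrane gene, averaged 7.55 CPM in delEx44 against 23.9 CPM in WT at 4 weeks (-1.67 ± 0.22, adjusted p = 9.1e-05), and its fall was called on totals at all 3 stages (-1.27, -1.51 and -1.42). Spire1, an actin nucleator, went the other way, averaging 37.2 CPM in delEx44 against 24.9 CPM in WT at 18 months (0.58 ± 0.08, adjusted p = 0.00035).

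Inner-membrane processing and cristae genes gave 13 falls and 0 rises among 18 in delEx44 at 4 weeks, 4 and 0 after running, and 13 and 0 at 18 months, against 0 falls and 8 rises on library totals at 4 weeks, 0 and 0 after running, and 3 and 2 at 18 months. Oma1, the protease that cleaves OPA1 under stress, averaged 25.7 CPM in delEx44 against 35.5 CPM in WT at 4 weeks (-0.47 ± 0.07, adjusted p = 0.00021) and was not called on totals. Mitophagy genes gave 12 falls and 0 rises among 19 at 4 weeks, 6 and 2 after running, and 7 and 2 at 18 months, against 4 falls and 10 rises, 3 and 3, and 4 and 7 on totals. Vdac1, the outer-membrane channel, averaged 775 CPM in delEx44 against 1265 CPM in WT at 4 weeks (-0.71 ± 0.08, adjusted p = 1.9e-05) and was called on totals (-0.31). Map1lc3a, an autophagosome gene, averaged 141 against 87.4 CPM at 18 months (0.69 ± 0.09, adjusted p = 0.00024).

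**Figure D5:**
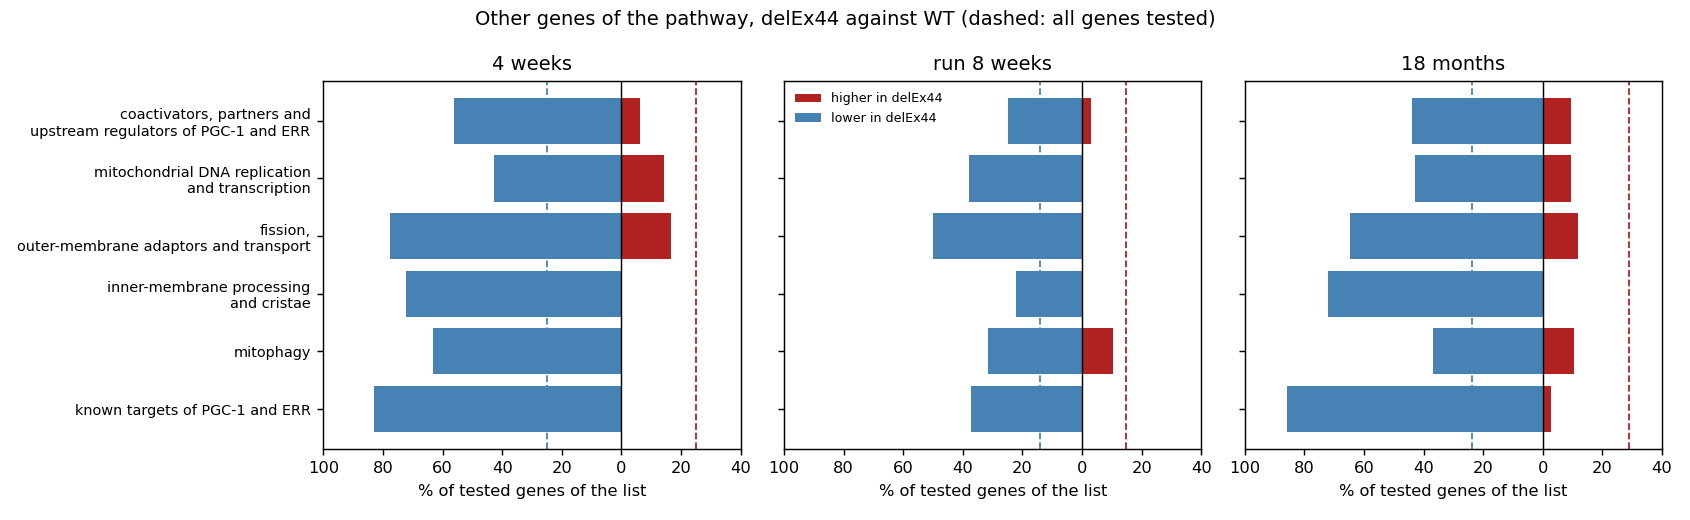
Share of the tested genes of each of 6 pathway lists that were higher (right of 0) or lower (left of 0) in delEx44 than in WT with an adjusted p under 0.05 under TMM scaling, in 3 panels for 4 weeks, run 8 weeks and 18 months; dashed lines give the same shares over all genes tested. The targets of PGC-1 and ERR reach 29 of 35 lower at 4 weeks and 30 of 35 at 18 months. On library totals 6 and 19 were lower and the other lists had more higher than lower genes at 4 weeks. Over all genes tested 91.2% of the calls on totals were higher at 4 weeks.

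The genes with the pattern most like a member over the 9 group means were named for 1 member of each role, among 9605 genes with at least 5 CPM in both tables, each table centred on its own mean. For Ppargc1a they were Zfp507, Eif2ak1 and Mto1, at a root mean square difference of 0.0359, 0.0419 and 0.0438 log2 units, against a median of 0.214 over all genes. For Esrra they were Abcb8, Sord and Phyh (0.0497, 0.0549 and 0.0553, median 0.287). For Mfn2 they were Polr3gl, R3hdm4 and Kat2b (0.0585, 0.0592 and 0.0599, median 0.261). The centred group means ranged over 0.483 log2 units for Ppargc1a, 0.9 for Esrra and 0.873 for Mfn2. For Ppargc1a the SE of delEx44 against WT at 4 weeks, 0.39, was wider than the distances to its nearest genes. The nearest of 9605 genes lie under the median by selection, so these names are a description and were not tested.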

How the data were processed

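The authors deposited raw gene-level read counts as 2 tables, covering 15 libraries of the 4-week and run groups and 9 libraries at 18 months. Per the submitters' processing notes, the genome was mm10 and the tools named were HTSeq, STAR 2.7.2b, Trim Galore, SAMtools 1.9, edgeR and Bowtie2 2.3.4.3. Annotation and strand setting were not given in the sources used here, so overlapping and antisense genes cannot be separated. The 5 records that name no gene were left out (27.4% to 34.2% of a library's records, and 42.2% to 48.3% at 18 months). Of the 18-month WT columns, 2 could be matched only to their group, because their headings are also the descriptions of run WT libraries. They are called libraries a and b.

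The test used edgeR 4.0.16 under R 4.3.3 with filterByExpr, TMM factors, and a robust quasi-likelihood model with 1 mean per group. The fits numbered 3, on the 15 libraries (15013 genes), the 9 libraries (14337 genes) and the 18 sedentary libraries (14937 genes, for changes with age). P-values were adjusted by the Benjamini-Hochberg method over all genes tested, at 0.05. There were 16 comparisons, and the script was tested on simulated data. Lengths per kilobase are union exons of GENCODE vM21. Alternatives were DESeq2 1.42.0, its size factors, no filter, the 2 groups alone, leaving out each library, a replicate block and library totals without TMM.

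The members and gene lists were chosen with earlier results of these data known. Named genes were the 10 members, Dmd, the marker lists and, for each pathway list, the 2 genes with the smallest p in delEx44 against WT at 4 weeks and at 18 months; some of the list genes so chosen are given as counts alone. The nearest patterns took the 3 most alike genes of Ppargc1a, Esrra and Mfn2. Of the lists, 4 pathway genes stand in the tables under older symbols. Promoters came from RefSeq (GRCm38.p6), where 9 of 10 members matched. Replicates of a group differed by more than sampling noise. A chi-square of the counts over genes, per degree of freedom, was 112 between 18-month WT libraries a and b. The other pairs within a group lay at 9.52 to 48.9.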

Additional observations from a re-analysis of the deposited data

Results flagged for a closer look

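Tests of the difference between groups singled out 4 results among the members. For Mfn2, the corrected against delEx44 difference was lower after running than at 4 weeks by a log2 value of -0.63 (adjusted p = 0.039). For Mfn2, the delEx44 against WT log2 fold change was less negative at 18 months than at 4 weeks, with a change of 0.47 (adjusted p = 0.023). The corrected against delEx44 log2 fold change of Mfn2 was smaller at 18 months, with a change of -0.45 (adjusted p = 0.023). For Ppargc1b, the corrected against delEx44 difference was lower at 18 months than at 4 weeks by -0.76 (adjusted p = 0.040). The first and the third of the Mfn2 contrasts share the 4-week corrected and delEx44 libraries, and all 3 share the 4-week delEx44 libraries. Vector dose and type differ between the ages in corrected mice, and the 2 ages come from separate tables.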

How the results depend on the processing

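With groups of 2 or 3 libraries, calls near the threshold depended on single libraries. Leaving out each library in turn, the number of members called in delEx44 against WT ranged from 5 to 6 at 4 weeks, 2 to 5 after running and 3 to 5 at 18 months. In corrected against delEx44 it ranged from 5 to 5 at 4 weeks, 1 to 3 after running and 3 to 5 at 18 months, and in corrected against WT from 0 to 0, 0 to 0 and 0 to 4. In run against 4-week muscle it ranged from 0 to 3 in corrected, 1 to 4 in delEx44 and 0 to 4 in WT. For the change of a difference with running it was 0 to 1 (corrected against delEx44) and 0 to 0 (delEx44 against WT), and for the change with age 0 to 3 and 0 to 1. An omission that leaves a run group with 1 library assumes that it varies like the other groups.

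DESeq2 called 7 members in delEx44 against WT at 18 months (4 by edgeR), adding Ppargc1a, Esrrb and Mfn2. It called 3 in corrected against WT at 18 months (0) and 2 in the change of delEx44 against WT with running (0). Over all genes DESeq2 called 7520, 1638 and 718 in these comparisons, against 7549, 683 and 132 by edgeR. DESeq2's size factors and no filter on low counts each called 1 in corrected against WT at 18 months. Fitting the 2 groups alone called 1 in run against 4-week WT (3), losing Esrrb and Mfn1. It called 6 in delEx44 against WT at 18 months (4), adding Ppargc1a and Esrrb, and lost Tfam at 4 weeks and Opa1 after running. In corrected against delEx44 it lost Esrra and Mfn1 and added Esrrg after running, and lost Ppargc1a at 18 months. Library totals called 1 in the change of delEx44 against WT with running (0) and 1 in the change of corrected against delEx44 with age (2). On library totals 28 of 160 member values changed sign, 24 of them called under neither scaling. The other 4 were called under at least 1 scaling and were all of Tfam: delEx44 against WT was 0.20 at 4 weeks and 0.047 at 18 months, and corrected against delEx44 was -0.19 at 4 weeks and -0.0083 at 18 months. The cause of these changes was not tested.

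A replicate block could be fitted for corrected against delEx44 at 18 months, together with a restriction to those 2 groups. It called 4 members in place of 5, without Ppargc1a, which was also lost with the 2 groups alone and no block. Same-numbered libraries did not deviate together (correlations of -0.0706, 0.0885 and -0.0498), so the numbers were not taken to pair the samples.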
